A study of Mus musculus with 12 samples.

Results

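Knockout soleus was compared with knockout gastrocnemius in mice with Phf2 targeted in skeletal muscle fibres, to ask how far the identity of each muscle was kept. The comparison took the 6 knockout libraries, 3 of each muscle, out of 12 libraries in all. Genes that averaged 1 TPM or more in these 6 libraries were kept, which left 12135 of the 34866 genes. TPM, the abundance unit of the deposited tables, scales each library to the same sum after dividing by gene length. Knockout (KO) animals were Phf2 flox/flox;Acta1 Cre+ males and controls (Ctrl) were Phf2 flox/flox;Acta1 Cre- males, both C57BL/6 and 4 weeks old. All animals of all groups therefore carried the floxed alleles, and no group carried Cre without them. The Acta1 promoter drives Cre in skeletal muscle fibres, so Phf2 in other cells of the muscle was not targeted.

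PHF2 is a Jumonji-family protein with a plant homeodomain finger that binds methylated histone H3 and takes part in lysine demethylation. Limb muscles are mixtures of fibres, each built from a slow or a fast set of contractile proteins, and these sets come from separate genes with matching roles. Mouse soleus is a postural muscle rich in slow type I and oxidative type IIA fibres, whereas gastrocnemius is dominated by fast, glycolytic type IIB fibres. Slow fibres rely on mitochondria and fatty acids, and fast fibres on glycogen and glycolysis.

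Phf2 itself was at 6.741, 7.608 and 7.003 TPM in gastrocnemius KO 1 to 3 and at 8.113, 9.063 and 6.790 TPM in soleus KO 1 to 3. In the control libraries it was at 9.996, 11.38 and 8.245 TPM in gastrocnemius and at 14.03, 10.002 and 14.98 TPM in soleus. Every KO library was below every Ctrl library of its muscle, and the 2 KO muscles overlapped, with a log2 difference of soleus minus gastrocnemius of 0.14 (SE 0.12, adjusted p = 0.415, limma). TPM counts the whole gene, so unexcised exons and cells without Cre both add to these values.

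The libraries differed in ways other than muscle, and each point below touches the results. Soleus KO 3 held 39.0% of its TPM in mitochondrially encoded genes, against 26.1% and 28.3% in soleus KO 1 and 2 and 18.1% to 20.7% in gastrocnemius KO. It also stood apart in GC content: across genes, the slope on GC fraction of log2(TPM + 1), taken relative to the 6 libraries of the same muscle, was -2.47 in soleus KO 3 and 0.19 to 0.88 in the other soleus libraries. In gastrocnemius that slope was -1.14 to -0.50 in Ctrl and 0.53 to 0.97 in KO. Gastrocnemius KO 2 had higher TPM of every slow myosin and troponin gene than gastrocnemius KO 1 and 3. The processed pseudogene Gm12338 was at 99.4 to 194 TPM in all 3 gastrocnemius KO libraries and at 174 TPM in soleus KO 2, and it was at 0 in soleus KO 1 and 3. Among the controls it was above 0 in soleus Ctrl 1 and 3 and at 0 in the other 4 libraries. The 6 libraries with Gm12338 also had 1539 to 1782 processed pseudogenes above 0, against 1018 to 1436 in the 6 without it. No label explains this split, which is called the pseudogene split here, and soleus KO 2 and soleus Ctrl 2 are the only libraries that break its match with muscle within their genotype. Both muscles were also deposited as separate tables, so table and muscle cannot be told apart either. Sequencing depth is unknown because TPM does not keep it.

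In KO muscle, 2658 genes were higher in soleus and 949 were higher in gastrocnemius, which is 21.9% and 7.82% of the 12135 genes tested (limma on log2(TPM + 1), adjusted p under 0.05). Of these, 469 and 341 differed by more than 2-fold. Groups of 3 libraries did not overlap for 5797 genes, or 47.8% of those tested, and 3605 of the 3607 called genes were among them. The median log2 difference of all tested genes was 0.13 towards soleus. With median-ratio scaling that median was -0.0013 and the counts were 1539 and 1592. The share of calls higher in soleus was 73.7% in TPM and 49.2% after that scaling. With quantile normalization 50.8% of calls were higher in soleus, and after rescaling without mitochondrially encoded genes 87.8% were, with a median of 0.33. After a correction for GC content and transcript length the share was 50.6%. Median-ratio scaling, quantile normalization and this correction centre the libraries on each other, so a near-even split follows largely from the method. The source of the excess in TPM was not tested.

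The number of calls also depended on single libraries and on the pseudogene split. Without soleus KO 3 the counts were 3401 and 987, and 2457 and 892 of the original calls remained. Leaving out gastrocnemius KO 1, 2 or 3 gave 1591, 1572 and 1438 soleus-higher genes and 604, 623 and 587 gastrocnemius-higher genes, and leaving out soleus KO 1 gave 1727 soleus-higher genes. With the pseudogene split as a term in the fit, the counts were 688 and 340. At an unadjusted p under 0.05, 5062 genes passed without that term and 3236 with it. At the edge of the expression filter, Fgd6 and Zxdb entered with means of 1.0019 and 1.0024 TPM, and Tgm4 and Slit1 fell just outside with 0.99922 and 0.99814 TPM.

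The same muscle difference was measured in the 6 Ctrl libraries, none of which entered the KO fit. There 3782 genes were higher in soleus and 1232 in gastrocnemius, 31.4% and 10.2% of the 12048 tested. Across the 11868 genes tested in both genotypes, the KO and Ctrl muscle differences had a Pearson r of 0.779 and a Spearman rho of 0.615. Their total-least-squares slope was 0.935. That slope treats both differences as equally noisy, so it is not a regression of KO on Ctrl and not a share kept. These are descriptions across genes, which share libraries and are not independent replicates. Without soleus KO 3 r was 0.829, and without soleus KO 2 it was 0.710. In both genotypes 1718 genes were higher in soleus, which is 65.3% of the KO list and 45.9% of the Ctrl list. In both genotypes 660 genes were higher in gastrocnemius, 71.4% of the KO list and 54.6% of the Ctrl list. Only 11 genes were called in opposite directions.

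The genes with the larger muscle differences in Ctrl were looked up in KO. Of 652 genes at least 2-fold higher in Ctrl soleus, 513 (78.7%) were also called higher in KO soleus, and of the 123 at least 4-fold higher, 117 (95.1%) were. Of 304 genes at least 2-fold higher in Ctrl gastrocnemius, 266 (87.5%) were called in KO, and of the 67 at least 4-fold higher, 62 (92.5%) were. The medians of the 4-fold genes were 2.39 in Ctrl and 2.26 in KO on the soleus side, and -2.66 and -2.44 on the gastrocnemius side. These sets were chosen on Ctrl, so their medians do not compare the genotypes evenly. Of 94 genes more than 4-fold higher in KO soleus, 91 (96.8%) were called in Ctrl, with medians of 2.43 in Ctrl and 2.46 in KO. Of 85 such genes in KO gastrocnemius, 75 (88.2%) were called in Ctrl, with medians of -2.37 in Ctrl and -2.44 in KO. In the scatter of both muscle differences, the slow sarcomere genes lie towards the soleus end of the cloud in both genotypes. The fast sarcomere genes spread more widely, from -6.69 to 2.61 in KO with a median of -1.61.

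**Figure D1:**
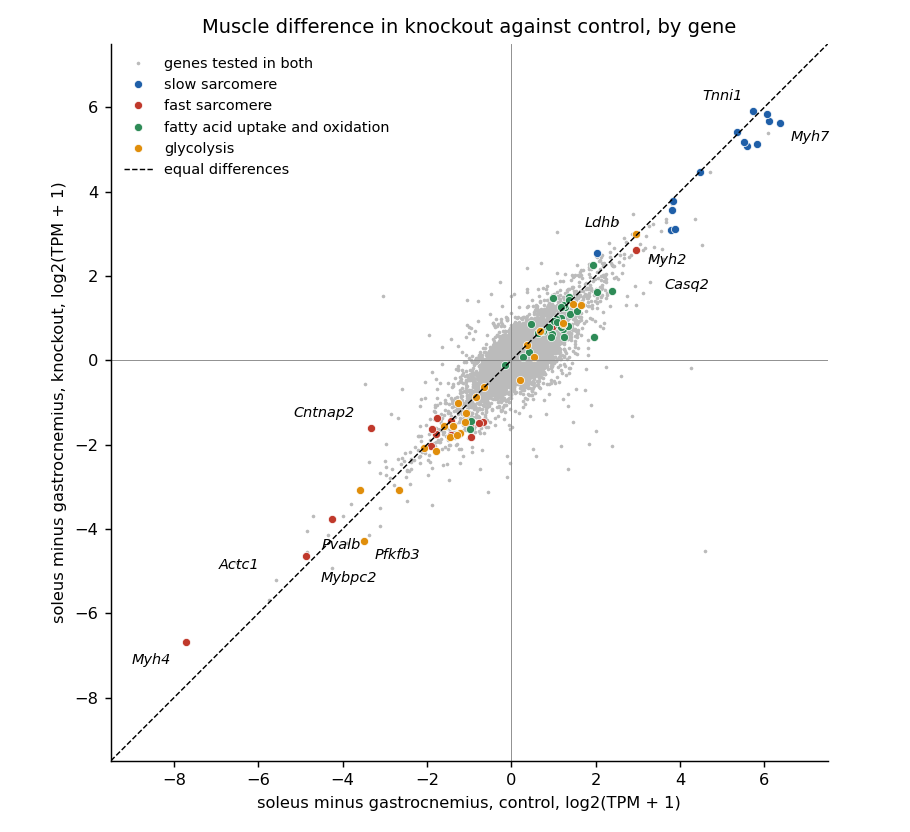
Muscle difference in control (x axis) and in knockout (y axis), soleus minus gastrocnemius in log2(TPM + 1), with each point a gene tested in both genotypes and the genes of 4 lists in colour. Over the 11868 genes r was 0.779 and the total-least-squares slope 0.935, and the slow and fast sarcomere genes keep the same side in both genotypes.

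The contractile proteins gave the widest differences. All 14 of 14 slow sarcomere genes were higher in KO soleus (median log2 difference 5.10, against 0.13 for all tested genes), and so they were in Ctrl (median 5.43). Of 16 fast sarcomere genes, 14 were higher in gastrocnemius and 2, Myh1 and Myh2, were higher in soleus (median -1.61, and -1.60 in Ctrl). No member of either list was among the 33 genes (0.273% of 12091 tested) whose muscle difference itself differed between genotypes, a test described further on. Summed over the slow list, TPM ran from 1032 to 2080 in gastrocnemius KO and from 25761 to 44054 in soleus KO. In whole muscle, fewer slow fibres and less slow RNA per fibre cannot be told apart, here or in any list below. With the pseudogene split as a term, all 14 slow genes were still called, and 10 fast genes were called lower and 1 higher.

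The myosin heavy chains are the motors of the sarcomere, and the fibre type is named after them. Myh7, the slow type I myosin (chr14:54970684-54994626, mm10, minus strand), was at 45.6, 140 and 52.3 TPM in gastrocnemius KO and at 4056, 5717 and 1795 TPM in soleus KO. The groups did not overlap, with the lowest soleus library, KO 3, still far above the highest gastrocnemius library, KO 2. The log2 difference was 5.62 (SE 0.536, adjusted p = 0.000564, limma), a ratio of means of 48.7. Myh4, the type IIB myosin (chr11:67238029-67260446, mm10, plus strand), was at 11540, 11453 and 12236 TPM in gastrocnemius KO and at 122, 272 and 43.0 TPM in soleus KO. It was 80.5-fold higher in gastrocnemius, with a log2 difference of -6.69 (SE 0.58, adjusted p = 0.000406, limma), and its 3 soleus values spread over more than its gastrocnemius values on a log scale.

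The intermediate myosins lay on the soleus side. Myh2, the oxidative type IIA myosin, was at 296, 474 and 413 TPM in gastrocnemius KO and at 2699, 2304 and 2152 TPM in soleus KO, a log2 difference of 2.61 (adjusted p = 0.000259, limma). Myh1, the type IIX myosin, was at 465, 714 and 537 TPM against 1204, 1095 and 727 TPM. Its groups nearly touched, and its call (0.81, adjusted p = 0.0416, limma) was lost with median-ratio scaling, with no filter, with the replicate number as a block (adjusted p = 0.0508), with the pseudogene split as a term and when any of gastrocnemius KO 1, gastrocnemius KO 3, soleus KO 1 or soleus KO 2 was left out. These myosin genes are close homologues, so reads could be shared between them in a way the deposited values do not show.

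As shares of the summed TPM of these 4 myosins, gastrocnemius KO held 91.8% Myh4, 4.47% Myh1, 3.08% Myh2 and 0.619% Myh7. Soleus KO held 49.7% ± 11.4 Myh7, 34.5% Myh2, 14.0% Myh1 and 1.78% ± 1.02 Myh4 (SD, n = 3). The Myh7 share was 50.2%, 60.9% and 38.1% in soleus KO 1 to 3, so soleus KO 3 was the only soleus library in which Myh2, at 45.6%, exceeded Myh7. The Myh4 share of soleus KO was 1.51%, 2.90% and 0.912%, against 0.461%, 0.397% and 0.779% in soleus Ctrl. Those values do not overlap, and the soleus share itself was not tested. The genotype test on the muscle difference of Myh4 uses log2(TPM + 1) and takes in gastrocnemius as well. It gave 1.04 (95% interval -0.54 to 2.62, adjusted p = 0.423, limma).

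**Figure D2:**
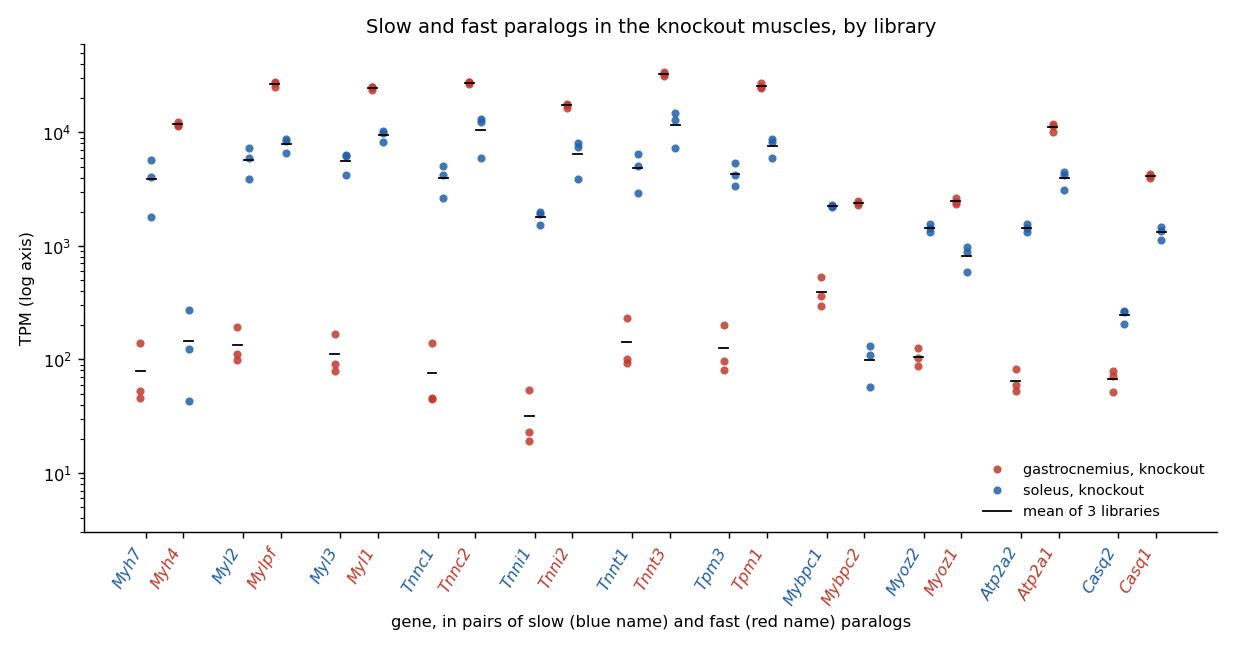
TPM (log axis) of the slow and the fast member of 11 protein pairs in each knockout library, with a point for each library and the muscles in separate colours. In every pair the slow member is higher in soleus and the fast member higher in gastrocnemius, with Myh7 at 45.6 to 140 TPM in gastrocnemius and 1795 to 5717 TPM in soleus.

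The other thin and thick filament genes followed in pairs of slow and fast members. Slow troponin C (Tnnc1), the calcium sensor of the thin filament, was at 44.6, 140 and 45.6 TPM in gastrocnemius KO and at 4225, 5096 and 2636 TPM in soleus KO (log2 difference 5.85, adjusted p = 0.000297, limma). Its fast counterpart Tnnc2 was at 27820, 27637 and 26884 TPM against 12411, 13022 and 5956 TPM (-1.47, adjusted p = 0.0119, limma). Both genes separated the muscles, and the fast gene remained the more abundant of the pair in soleus. Tnnc1 was 28.1% ± 2.64 (SD, n = 3) of the pair's TPM in soleus KO and 0.277% ± 0.195 in gastrocnemius KO.

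The same held for the other regulatory pairs. Slow troponin I (Tnni1), which blocks the actin site at rest, made up 22.7% ± 4.54 of its pair in soleus KO and 0.182% ± 0.101 in gastrocnemius KO. For troponin T (Tnnt1 against Tnnt3), which anchors the complex to tropomyosin, the shares were 29.1% ± 1.07 and 0.434% ± 0.237. For tropomyosin (Tpm3 against Tpm1) they were 36.1% ± 2.11 and 0.489% ± 0.267 (SD, n = 3 throughout). The fast gene was the majority of each pair in soleus of both genotypes, with Ctrl soleus shares of 20.4%, 32.0% and 37.7%.

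Myosin light chains stabilise the lever arm of the motor. The slow regulatory chain Myl2 was 41.3% ± 4.87 of its pair with Mylpf in soleus KO and 0.511% ± 0.225 in gastrocnemius KO. The slow essential chain Myl3 was at 78.5, 168 and 91.0 TPM in gastrocnemius KO and at 6355, 6164 and 4231 TPM in soleus KO (5.68, adjusted p = 7.96e-05, limma), or 36.9% ± 7.07 of its pair with Myl1 in soleus. In Ctrl soleus the shares of Myl2 and Myl3 were 48.8% ± 2.70 and 45.0% ± 3.64 (SD, n = 3).

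In 3 pairs the slow member was the majority in soleus. Beside Myh7 with Myh4, slow myosin-binding protein C (Mybpc1), which links myosin to the filament backbone, was 95.8% ± 1.58 of its pair in soleus KO and 14.2% ± 4.18 in gastrocnemius KO. Its partner Mybpc2 was at 2392, 2280 and 2499 TPM in gastrocnemius KO and at 110, 131 and 57.3 TPM in soleus KO (-4.65, adjusted p = 0.000125, limma). The calsarcin Myoz2, a Z-disc protein that binds calcineurin, was 64.1% ± 4.25 of its pair in soleus KO and 4.12% ± 0.938 in gastrocnemius KO. Of the 24 genes in these pairs, Myh1 and Myh2 included, all 24 were called, and 20 were with the pseudogene split as a term (not Tnnc2, Tnni2, Tnnt3 and Myh1). With no filter on low genes, Myl1, Tnnc2, Tnni2 and Tnnt3 also lost their call.

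Since the slow genes moved together between the muscles and the fast genes the other way, the 250 bases before the annotated start of each were searched on both strands for motifs of muscle regulators. Each of the 19 windows of the 14 slow genes held an E-box, CANNTG, the core bound by MyoD-family proteins, which 66.2% of all 32851 windows held. MCAT, CATTCC, the core bound by TEAD proteins, was in 3 slow windows (15.8%) and in 5 of the 9 windows of the 9 fast genes with an entry (55.6%), against 12.6% of all windows. A MEF2 motif was in 2 slow (10.5%) and 3 fast windows (33.3%), against 2.92% of all, and a CArG box, the motif of serum response factor, in 1 of each, against 1.47% of all. A match describes letters only. A window from each of 2 slow and 2 fast genes with wide differences is shown, from RefSeq on GRCm38.p6, read 5′ to 3′ on the gene's strand, with matches to any of these motifs in capitals. They are Tnnc1 at chr14:31208062-31208311 (plus strand), Myl3 at chr9:110763428-110763677 (plus), Myh4 at chr11:67237562-67237811 (plus) and Mybpc2 at chr7:44524670-44524919 (minus).
Tnnc1: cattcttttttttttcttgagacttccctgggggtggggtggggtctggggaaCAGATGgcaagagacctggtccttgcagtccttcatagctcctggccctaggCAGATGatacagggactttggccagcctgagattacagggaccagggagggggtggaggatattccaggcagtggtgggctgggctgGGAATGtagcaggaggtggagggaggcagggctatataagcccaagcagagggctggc
Myl3: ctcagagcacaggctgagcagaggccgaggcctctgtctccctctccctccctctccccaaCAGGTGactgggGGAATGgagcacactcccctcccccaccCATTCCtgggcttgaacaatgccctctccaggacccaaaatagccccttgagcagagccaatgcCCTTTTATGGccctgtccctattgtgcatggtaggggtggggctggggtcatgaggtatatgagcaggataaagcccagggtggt
Myh4: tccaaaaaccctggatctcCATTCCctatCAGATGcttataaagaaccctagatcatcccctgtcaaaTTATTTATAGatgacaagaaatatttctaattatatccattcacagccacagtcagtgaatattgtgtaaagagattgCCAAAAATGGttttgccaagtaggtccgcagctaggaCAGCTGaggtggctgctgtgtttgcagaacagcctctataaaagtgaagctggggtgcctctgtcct
Mybpc2: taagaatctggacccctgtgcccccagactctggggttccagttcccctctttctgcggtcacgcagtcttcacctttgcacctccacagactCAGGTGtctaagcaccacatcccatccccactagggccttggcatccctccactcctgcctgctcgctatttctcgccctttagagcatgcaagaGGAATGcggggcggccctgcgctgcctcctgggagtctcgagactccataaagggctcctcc
The Tnnc1 and Mybpc2 windows hold E-boxes and an MCAT core. The Myl3 window holds an E-box, MCAT cores and a CArG box, and the Myh4 window holds all 4 motifs.

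Structural proteins of the sarcomere that belong to neither set were called in both directions. Of 30 scaffold genes 9 were higher in soleus and 8 in gastrocnemius, beside 21.9% and 7.82% of all tested genes. The scaffold counts were 14 and 8 after rescaling without mitochondrially encoded genes and 8 and 1 under the pseudogene split term. Xirp1, an actin-binding protein of muscle attachment sites, was at 30.1, 39.5 and 39.3 TPM in gastrocnemius KO and at 260, 208 and 154 TPM in soleus KO (2.46, adjusted p = 0.000373, limma). The filament-length regulator Lmod2 (2.45), the Z-disc cross-linker Actn2 (1.98) and myotilin (Myot, 1.21) were higher too. The list's median of 0.11 was below 0 with median-ratio scaling (-0.04), quantile normalization (-0.10) and the GC correction (-0.01).

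Genes of developing and specialised muscle were called in both directions, 4 higher and 3 lower of 19, and 2 and 2 under the pseudogene split term. The higher count was near the 21.9% of all tested genes called higher, and 7.82% of all were called lower. Actc1, the cardiac actin that is used in immature skeletal muscle, was at 11073, 8015 and 7372 TPM in gastrocnemius KO and at 267, 282 and 168 TPM in soleus KO (-5.21, adjusted p = 5.92e-05, limma). Mybph, a relative of myosin-binding protein C, was at 569, 366 and 378 TPM against 29.0, 10.5 and 9.49 TPM (-4.81, adjusted p = 0.000354, limma), and the fusion protein gene Mymk was lower in soleus as well (-1.10). Myh6, the cardiac myosin, was higher in soleus (3.27), but it is a close homologue of Myh7 and its reads could come from there. In Ctrl 11 of 18 tested members were higher and 3 lower. The KO median of -0.02 changed sign to 0.21 after rescaling without mitochondrially encoded genes, and the Ctrl median was 0.76.

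Calcium handling differed in both directions, with 9 genes higher in soleus and 17 higher in gastrocnemius of 32 (median -0.48, and -0.23 in Ctrl). The shares of all tested genes were 21.9% and 7.82%. Atp2a2, the slow and cardiac calcium pump, was at 53.0, 82.6 and 59.6 TPM in gastrocnemius KO and at 1446, 1544 and 1313 TPM in soleus KO (4.46, adjusted p = 4.38e-05, limma). Pvalb, the calcium buffer parvalbumin of fast fibres, was at 18481, 16673 and 16817 TPM against 871, 954 and 476 TPM (-4.56, adjusted p = 0.000104, limma). Casq1, the fast calsequestrin of the calcium store, and the kinase gene Camk2a were also higher in gastrocnemius (-1.66 and -2.21). Atp2a2 was 27.0% ± 2.47 of its pair with the fast pump gene Atp2a1 in soleus KO and 0.595% ± 0.197 in gastrocnemius KO (SD, n = 3). The counts were 3 and 5 with the pseudogene split as a term.

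**Figure D3:**
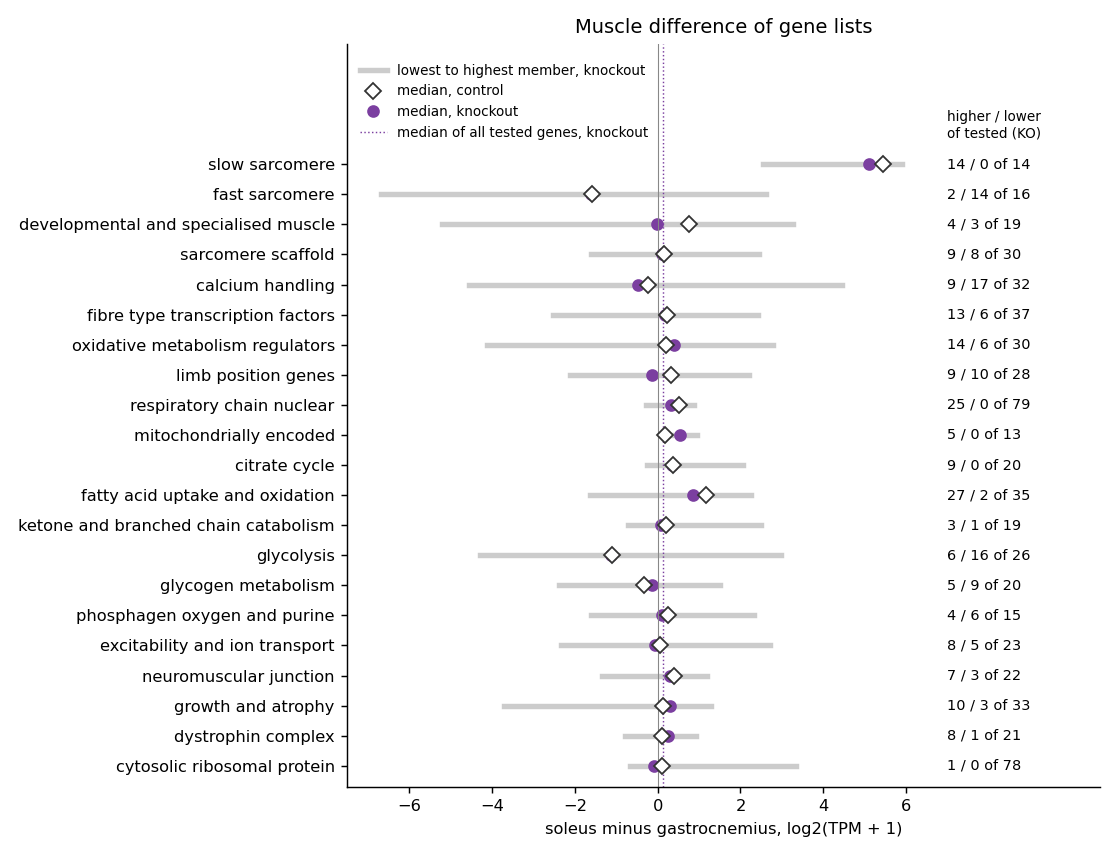
Median muscle difference of each gene list, soleus minus gastrocnemius in log2(TPM + 1), in knockout (filled circles) and control (open diamonds), with grey bars from the lowest to the highest member in knockout, the dotted line at the all-gene median and counts of members higher and lower in soleus at the right. The slow sarcomere list (median 5.10) stands apart from the others on the soleus side, and fast sarcomere (-1.61) and glycolysis (-1.13) lie furthest on the gastrocnemius side.

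Of 37 tested regulators of fibre type, 13 were higher in soleus and 6 lower, against 21.9% and 7.82% of all tested genes. Those counts were 10 and 7 with median-ratio scaling or quantile normalization, 10 and 9 with the GC correction and 7 and 5 under the pseudogene split term. Maf, a large Maf factor tied to type IIB fibres in mice, was at 67.1, 59.4 and 50.8 TPM in gastrocnemius KO and at 9.32, 10.6 and 8.23 TPM in soleus KO (-2.53, adjusted p = 9.27e-05, limma). Vgll2, a TEAD cofactor needed for slow fibre genes in mice, was at 34.5, 47.5 and 38.7 TPM against 269, 266 and 148 TPM (2.43, adjusted p = 0.00079, limma). Tead1, one of the factors that bind the MCAT core, was 3.08-fold higher in soleus and Gtf2ird1 2.31-fold. Chosen after their values were seen, Sox6, a repressor of slow genes, was higher in gastrocnemius (-1.04) and Mafa as well (-2.30).

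Of 30 regulators of oxidative metabolism 14 were higher in soleus and 6 lower (median 0.40), beside 21.9% and 7.82% of all tested genes. The counts were 10 and 7 after median-ratio scaling, and 5 and 4 under the pseudogene split term. The orphan receptor gene Esrrb was at 0.538, 0.581 and 0.613 TPM in gastrocnemius KO and at 7.01, 6.65 and 6.12 TPM in soleus KO (2.27, adjusted p = 4.38e-05, limma). The coactivator gene Ppargc1a, chosen after its value was seen, was also higher (2.78). The lower genes held AMP-activated kinase subunits of fast fibres, with Prkag3 at 127, 121 and 124 TPM in gastrocnemius KO against 8.06, 6.32 and 4.39 TPM (-4.14, adjusted p = 4.38e-05, limma) and Prkab2 6.41-fold higher in gastrocnemius. Mss51, a mitochondrial protein gene under myostatin control, was lower in soleus as well (-1.98).

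Positional genes, which keep the embryonic address of a limb muscle, also separated the muscles, 9 higher and 10 lower of 28 tested, 5 and 12 with median-ratio scaling and 5 and 5 under the pseudogene split term (median -0.13, 0.07 after rescaling without mitochondrially encoded genes, and 0.31 in Ctrl). Hoxd8 was at 21.81, 19.19 and 19.99 TPM in gastrocnemius KO and at 6.27, 6.96 and 6.83 TPM in soleus KO (-1.47, adjusted p = 0.00015, limma). Its neighbours Hoxd9 and Hoxd10 were lower in soleus too (-2.11 and -1.53). The values of these Hoxd genes did not overlap between the muscles, as for 47.8% of all tested genes. They were named for their small p within the list. Of all tested genes 21.9% were called higher and 7.82% lower.

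Glycolysis was higher in KO gastrocnemius, with 16 genes lower in soleus and 6 higher of 26 (median -1.13, and -1.10 in Ctrl). The shares of all tested genes were 7.82% lower and 21.9% higher. Pfkfb3, which makes the allosteric activator of phosphofructokinase, was at 80.9, 66.2 and 116 TPM in gastrocnemius KO and at 2.63, 4.84 and 3.07 TPM in soleus KO (-4.29, adjusted p = 0.000104, limma). Lactate dehydrogenase changed subunits: Ldha was at 3142, 2609 and 2419 TPM against 680, 646 and 520 TPM, and Ldhb, the heart-type subunit, at 82.9, 92.9 and 94.5 TPM against 747, 697 and 721 TPM. Their log2 differences were -2.14 and 2.99 (adjusted p = 0.000263 and 4.38e-05, limma), so the less abundant subunit was the other one in each muscle. Gpd2 of the glycerol phosphate shuttle was 9.82-fold higher in gastrocnemius. The counts were 12 lower and 4 higher with the pseudogene split as a term.

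Of 20 glycogen genes 9 were lower in soleus and 5 higher, and under the pseudogene split term 8 and 1. Among all tested genes 7.82% were lower and 21.9% higher, so the higher count was near the share of all. The phosphorylase kinase subunits Phka1, Phkg1 and Phkb were 5.25-fold, 5.20-fold and 3.53-fold higher in gastrocnemius, and Pgm1, which connects glycogen to glycolysis, 4.54-fold. The list's median was -0.14, and 0.08 after rescaling without mitochondrially encoded genes. Among 15 genes of energy buffering, oxygen storage and purine turnover, 4 were higher and 6 lower, 8 and 4 after rescaling without mitochondrially encoded genes, and 3 and 3 under the split term. Myoglobin (Mb) was at 877, 1231 and 1056 TPM in gastrocnemius KO and at 5314, 5491 and 4938 TPM in soleus KO (2.33, adjusted p = 0.000179, limma). The fast creatine kinase gene Ckm was 3.06-fold higher in gastrocnemius, and AMP deaminase changed its gene, Ampd1 being lower in soleus (-1.40) and Ampd3 higher (1.47).

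Fatty acid uptake and oxidation went with soleus, 27 genes higher and 2 lower of 35 (median 0.85, and 1.17 in Ctrl, against 0.13 for all KO genes). Lipoprotein lipase (Lpl), which frees fatty acids from circulating lipids, was at 102, 104 and 104 TPM in gastrocnemius KO and at 506, 452 and 526 TPM in soleus KO (2.25, adjusted p = 6.43e-05, limma). The fatty acid transporter Cd36 was 2.85-fold and the activating enzyme Acsl1 2.42-fold higher in soleus, whereas Acsl6 was 3.53-fold higher in gastrocnemius and Ucp3 was the other member that was lower. Under the pseudogene split term 18 were higher and 2 lower. Of 19 genes of ketone and branched-chain catabolism 3 were higher and 1 lower, no more than the 21.9% and 7.82% of all tested genes. Among the higher genes Bdh1, which oxidises ketone bodies, was 6.93-fold higher in soleus.

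In the main fits fewer respiratory chain genes were called higher in KO soleus than in Ctrl soleus. The shares of all tested genes called higher also differed, at 21.9% in KO and 31.4% in Ctrl. Of 79 nuclear-encoded subunits 25 were higher and 0 lower in KO (median 0.33), against 69 higher in Ctrl (median 0.51), and 1 of them, Cox6a2, had a muscle difference that was called as different between genotypes. The KO count was 50 without soleus KO 3, 10 with median-ratio scaling, 60 after rescaling without mitochondrially encoded genes and 0 with the pseudogene split as a term. The Ctrl count is given for the main fit only, so these alternatives do not compare the genotypes. Cox6c, a subunit of cytochrome oxidase, was at 1040, 1109 and 1018 TPM in gastrocnemius KO and at 2075, 1653 and 2096 TPM in soleus KO (0.87, adjusted p = 0.00485, limma). Uqcrc2 of the cytochrome bc1 complex was 1.48-fold higher and Ndufs4 of complex I 1.72-fold.

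Of 13 mitochondrially encoded genes 5 were higher in KO soleus and 0 lower (median 0.55), against 2 in Ctrl (median 0.19). The shares of all tested genes called higher were 21.9% in KO and 31.4% in Ctrl. The KO count was 1 with median-ratio scaling, 9 with quantile normalization and 0 with the pseudogene split as a term. mt-Co1 was at 23036, 25550 and 26412 TPM in gastrocnemius KO and at 43284, 45079 and 57741 TPM in soleus KO (0.95, adjusted p = 0.00821, limma). The highest value was that of soleus KO 3, the library with the large mitochondrial share, and the median of the list without it was 0.38. In the citrate cycle 9 of 20 genes were higher and 0 lower (median 0.36), led by mitochondrial isocitrate dehydrogenase (Idh2, 4.24-fold) and malate dehydrogenase (Mdh1, 2.87-fold). The citrate cycle counts were 5 and 1 with median-ratio scaling and 2 and 0 under the pseudogene split term.

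**Figure D4:**
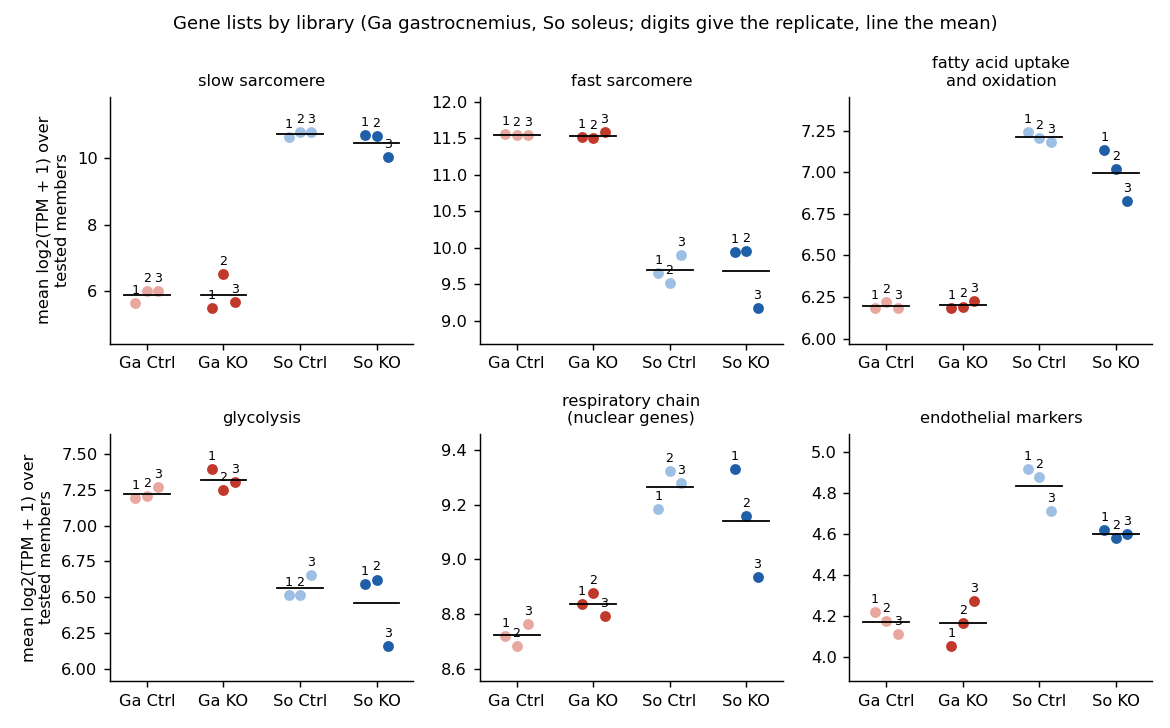
Mean log2(TPM + 1) over the tested members of selected gene lists in each of the 12 libraries, with a point for each library, grouped by muscle and genotype. The slow sarcomere list separates the muscles in both genotypes, and gastrocnemius KO 2 is the highest of the gastrocnemius libraries in that list.

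Ion transport, the synapse and growth control held smaller groups of calls. Of 23 excitability genes 8 were higher and 5 lower, with the sodium pump changing its beta subunit: Atp1b1 was 4.84-fold higher in soleus and Atp1b2 4.19-fold higher in gastrocnemius. Of 22 neuromuscular junction genes 7 were higher and 3 lower. The receptor kinase gene Musk was 2.54-fold and the acetylcholine receptor subunit Chrnd 2.73-fold higher in soleus, as was Colq (2.12-fold), which tethers the esterase. The esterase gene Ache itself was 2.59-fold higher in gastrocnemius. Of 33 growth and atrophy genes 10 were higher and 3 lower, and of 21 dystrophin complex genes 8 were higher and 1 lower (Sntb1, 1.90-fold higher in gastrocnemius). Against the 21.9% of all tested genes called higher and the 7.82% called lower, the growth counts lay close by. After median-ratio scaling the counts higher and lower were 7 and 7 for excitability, 5 and 3 for the junction, 6 and 5 for growth and 4 and 4 for the dystrophin complex. Under the pseudogene split term they were 5 and 3, 2 and 1, 4 and 2, and 1 and 1.

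Myostatin (Mstn), the inhibitor of muscle growth, was at 20.2, 14.3 and 18.8 TPM in gastrocnemius KO and at 0.355, 0.439 and 0.493 TPM in soleus KO (-3.71, adjusted p = 4.38e-05, limma). In Ctrl it was at 38.7, 29.6 and 32.0 TPM against 0.459, 0.228 and 0.237 TPM, and the test of the genotype difference gave 1.01 (adjusted p = 0.0672, limma). The ubiquitin ligase gene Fbxo32 was 2.54-fold higher in soleus and Gadd45a, a stress-response gene, 5.72-fold higher in gastrocnemius. Of 78 cytosolic ribosomal protein genes 1, Rpl3, was higher and 0 were lower (median -0.10, 0.13 after rescaling without mitochondrially encoded genes). After median-ratio scaling 0 were higher and 15 lower, and the Rpl3 call was also lost under the pseudogene split term and without any 1 of gastrocnemius KO 1, 2 or 3 or soleus KO 1 or 2. Rpl29 of that list varied within groups, at 5.95, 181 and 10.8 TPM in gastrocnemius KO and 399, 172 and 226 TPM in soleus KO (adjusted p = 0.0623, limma).

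Ranked by size, the largest differences outside the pairs included genes with no known part in the sarcomere. On the soleus side Nlrc3, an innate immune regulator, was at 0.886, 1.84 and 1.54 TPM in gastrocnemius KO and at 33.6, 20.7 and 39.1 TPM in soleus KO (3.71, adjusted p = 0.000174, limma). The natriuretic peptide clearance receptor gene Npr3 was 19.7-fold higher in soleus, the secreted synaptic protein gene Lgi1 18.3-fold and the myosin light chain gene Myl10 16.4-fold. Hspa1a, an inducible heat shock protein gene, was 11.9-fold higher, with reads that may be shared with its near-identical copy. Of slow sarcomere genes, Myl6b, Myh7b, Myom3, Csrp3 and Ankrd2 completed the 10, at 34.4-fold, 43.9-fold, 12.1-fold, 8.71-fold and 9.03-fold.

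On the gastrocnemius side Tspan8, a tetraspanin gene, was at 30.6, 16.9 and 24.6 TPM in gastrocnemius KO and at 0.531, 0.487 and 0.379 TPM in soleus KO (-4.06, adjusted p = 6.75e-05, limma). The fast Z-disc gene Actn3 was 12.9-fold higher in gastrocnemius and Gpt2, a mitochondrial alanine aminotransferase, 13.9-fold. The 20 genes taken by size were drawn from called genes whose KO groups did not overlap, so their separation was part of the choice. All 20 were called under each alternative listed with the processing and without each library. They were still called with the pseudogene split as a term. All 20 were also called in the same direction in Ctrl.

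Markers of other cell types were counted beside these results. Of 15 endothelial markers 8 were higher in KO soleus and 0 lower, with summed TPM from 313 to 360 in gastrocnemius KO and from 460 to 489 in soleus KO, and Eng was 1.75-fold and Pecam1 1.54-fold higher. Of 19 fibroblast markers 4 were higher (Cd34, Lum, Mfap5 and Postn), a share near the 21.9% of all tested genes, while the summed TPM overlapped, at 2171 to 4848 and 1749 to 2864. The fibroblast count was 2 with median-ratio scaling, and the calls of Cd34 and Mfap5 were lost there. Of 10 satellite cell markers 2, Myf5 and Sdc4, were higher (105 to 109 and 122 to 168 summed TPM), and of 13 smooth muscle and pericyte markers 3 (1423 to 1663 and 1429 to 1969). Of 10 adipocyte markers 2 were higher, Fabp4 and Cidea, and 1 lower, Car3 (2525 to 3486 and 2301 to 2758). The shares called higher in these lists were also near that of all tested genes. None of 11 macrophage, 11 tendon, 10 Schwann cell and 5 erythroid markers was called, with summed TPM of 114 to 216 and 103 to 133, 202 to 666 and 221 to 450, 148 to 342 and 200 to 335, and 1381 to 3228 and 2430 to 2755. After median-ratio scaling 4 endothelial markers were higher and 1 lower. Under the pseudogene split term 2 endothelial, 1 fibroblast, 1 satellite cell, 1 adipocyte and 0 smooth muscle markers were higher. The part of the endothelial difference in the metabolic lists was not tested.

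The change of the muscle difference with genotype was tested gene by gene in all 12 libraries. Of 12091 genes 33 were called, 19 with a larger and 14 with a smaller soleus minus gastrocnemius value in KO (0.273% of those tested; 2497 genes at an unadjusted p under 0.05, limma). In 13 the muscle difference kept its sign and was smaller in KO, in 4 it was larger, in 10 its sign changed, in 4 both genotypes were called in opposite directions and 2 were below the KO filter. In 24 of the 33 the larger shift between genotypes was in gastrocnemius. The call count rested on single libraries: without soleus KO 2 it was 173 and 135, and without any other library it was 1 to 12 and 0 to 12. All 33 kept their sign without each library, and Cntnap2 was the 1 gene still called in all 12 of those fits and with the pseudogene split as a term, where 899 genes had an unadjusted p under 0.05 and Cntnap2 was the only call.

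Cntnap2, a neurexin-family adhesion protein (chr6:45059357-47304213, mm10, plus strand), was expressed in gastrocnemius, at 10.96, 10.21 and 10.57 TPM in Ctrl and 2.773, 2.215 and 2.999 TPM in KO. Its soleus values were 0.152, 0.129 and 0.268 TPM in Ctrl, with 0.135, 0.315 and 0.165 TPM in KO. Soleus was low in both genotypes, so its muscle difference narrowed from -3.29 to -1.60 (difference 1.69, 95% interval 1.35 to 2.03, adjusted p = 0.00276, limma). The call was lost with a pseudocount of 0.1 and with the replicate number as a block.

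For other genes of this test the genotypes differed more in gastrocnemius, and for some more in soleus. Of those below, Ppp1r3a and Cox6a2 fall outside the rule for naming genes. They were called in 3 and 2 of the 12 fits without each library. Ppp1r3a, which targets a phosphatase to glycogen, had 47.3 ± 4.59 TPM in Ctrl gastrocnemius, 26.2 ± 2.47 TPM in KO gastrocnemius, 18.5 ± 2.23 TPM in Ctrl soleus and 22.5 ± 2.35 TPM in KO soleus (SD, n = 3; difference 1.10, adjusted p = 0.0353, limma). Casq2, the slow calsequestrin, had 18.5, 20.1 and 25.6 TPM in Ctrl gastrocnemius, 52.0, 78.7 and 71.9 TPM in KO gastrocnemius, and soleus means of 216 ± 28.4 TPM for Ctrl and 245 ± 35.6 TPM for KO (difference -1.43, adjusted p = 0.0495, limma). Cox6a2, the muscle isoform of a cytochrome oxidase subunit, had 952, 925 and 1157 TPM in Ctrl gastrocnemius and 1857, 2002 and 1922 TPM in KO gastrocnemius. Its soleus values were 2372, 2007 and 2147 TPM for Ctrl and 1894, 2020 and 1349 TPM for KO, so that the KO muscles overlapped (difference -1.26, adjusted p = 0.0434, limma). Tecrl and Hspa2 differed mainly in soleus, Tecrl with 7.80 ± 0.858 TPM for Ctrl and 2.93 ± 0.620 TPM for KO and Hspa2 at 10.4 ± 1.53 TPM and 2.92 ± 0.504 TPM (SD, n = 3). Gastrocnemius KO and Ctrl differ fully by the pseudogene split, and its part in these values was not tested beyond the term above.

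**Figure D5:**
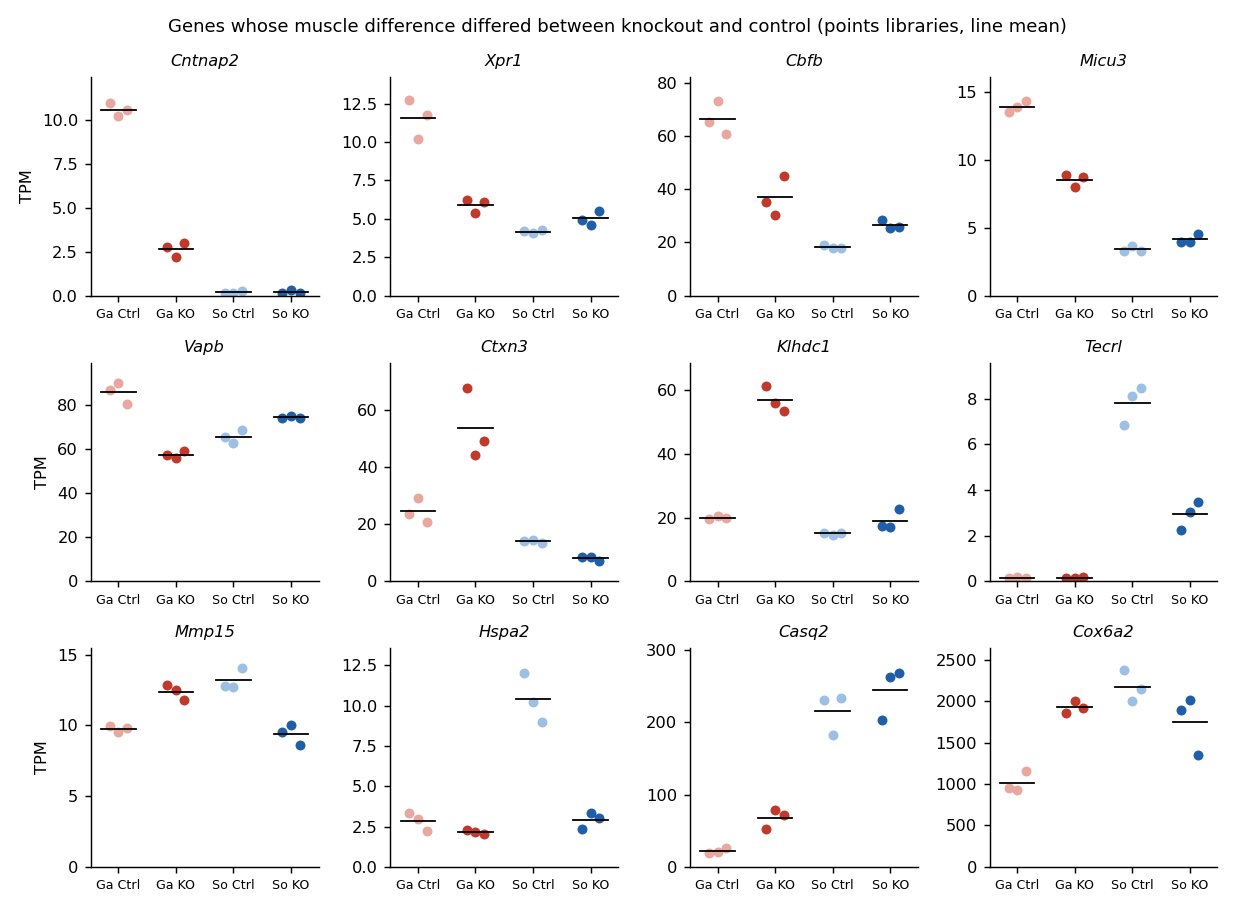
TPM of 12 genes whose muscle difference was called as different between genotypes, with a point for each library, a bar at the mean of each group and the 4 groups on the x axis. In gastrocnemius Cntnap2 is at 10.21 to 10.96 TPM in control and 2.215 to 2.999 TPM in knockout, and Casq2 and Cox6a2 are higher in knockout than in control gastrocnemius.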

How the data were processed

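TPM were computed and deposited by the authors, 1 table per muscle, with columns that each sum to 1000000. Per the submitters' processing notes the build was mm10; the sources used here do not give the aligner, quantifier or annotation. Strand-specific libraries used NEBNext Ultra II chemistry, per the labels' protocols. Whether the 3 libraries per group are from different mice is not stated in the labels, and p-values reflect no more than the spread among these libraries, which may be technical. Of 34866 IDs, 34652 matched GENCODE M21 (mm10). Aldoa, held by more than 1 ID, was left out of its list.

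Genes that averaged 1 TPM or more in the libraries of a fit were tested on log2(TPM + 1), a scale that understates differences of low genes. The test was limma 3.58.1 (R 4.3.3) with a mean-variance trend and Benjamini-Hochberg adjustment over all tested genes, called at an adjusted p under 0.05. The KO and Ctrl muscle differences, soleus minus gastrocnemius, came from separate fits of 6 libraries, and their difference from a fit of all 12.

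The members, gene lists and tests were chosen with earlier results of these data known. Named were Phf2, the slow and fast pairs with Myh1 and Myh2, the 10 largest differences per direction (passing over predicted genes, pseudogenes and family members, here Hspa1b, Myh6, Hist1h2al and Ighm), up to 4 members of smallest p per list, and up to 5 genes per direction of the genotype test; some genes under this rule are not reported here. The 10 largest per direction came from called genes whose KO groups did not overlap. As alternatives, the pseudocount was set to 0.1 and 0.5, and the filter was removed or raised to 5 TPM. Other scalings, fit settings, a GC and length correction, the replicate block and leaving out each library were also run. The pseudogene split, Gm12338 above 0, was added as a term after the data were seen. The fits were tested on simulated data.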

Additional observations from a re-analysis of the deposited data

Results flagged for a closer look

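For the 12 genes below, chosen by rule, and for Cox6a2 and Ppp1r3a of the report, the muscle difference itself differed between genotypes (limma, soleus minus gastrocnemius in KO minus the same in Ctrl, log2 scale). Positive values were those of Cntnap2 (1.692), Cbfb (1.347), Xpr1 (1.079), Mettl5 (0.9701), Micu3 (0.865) and Vapb (0.7493). Negative values were those of Ctxn3 (-1.818), Casq2 (-1.426), Hspa2 (-1.271), Tecrl (-1.174), Klhdc1 (-1.163) and Mmp15 (-0.7589). Vapb, an endoplasmic reticulum anchor protein, Mettl5, an RNA methyltransferase, and Mmp15, a membrane-bound matrix metalloproteinase, were called in opposite directions in the separate fits. Vapb (0.37 in KO, -0.38 in Ctrl) and Mettl5 (0.38 and -0.59) were higher in KO soleus and Ctrl gastrocnemius, and Mmp15 (-0.36 and 0.39) in KO gastrocnemius and Ctrl soleus. Their KO calls depended on the processing. Those of Vapb and Mettl5 were lost with median-ratio scaling (0.22 and 0.23), quantile normalization and the GC correction, and that of Mmp15 after rescaling without mitochondrially encoded genes (-0.16). All 3 were lost with the replicate block, under the pseudogene split term and without any 1 of gastrocnemius KO 1, 2 or 3 or soleus KO 1, Vapb also without soleus KO 2 and Mettl5 also with no filter. Vapb stood at 57.4, 56.0 and 59.0 TPM in gastrocnemius KO and at 74.4, 75.1 and 74.2 TPM in soleus KO. In the genotype test without each library in turn, all 12 kept their sign. Cntnap2 was called in all 12 of those fits, Ctxn3 in 8, Cbfb in 7, Xpr1 in 6, Klhdc1 in 5, Tecrl and Micu3 in 4, Vapb in 3, Mmp15 in 2, and Casq2, Hspa2 and Mettl5 in 1.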

How the results depend on the processing

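Higher means higher in soleus, and the cause of each move was not tested. In KO, median-ratio scaling gave 1539 higher and 1592 lower genes, quantile normalization 1602 and 1550, rescaling without mitochondrially encoded genes 5238 higher, and the GC and length correction 1743 lower. Without each library the KO counts ran from 1438 to 3401 higher and from 587 to 987 lower. In Ctrl, median-ratio scaling gave 2332 and 2277, quantile normalization 2268 and 2370, and the GC correction 2282 and 2305. For the genotype test of the muscle difference (19 and 14), the counts were 10 and 4 with a pseudocount of 0.1, 12 and 9 with median-ratio scaling, 12 and 5 without mitochondrially encoded genes, 165 and 127 with array weights and 9 and 7 with the GC correction. Its lower count was 26 with no filter, 7 with quantile normalization and 9 with no trend, and without each library the counts ran from 1 to 173 and from 0 to 135. Pearson r (0.779) was 0.735 with a pseudocount of 0.1, 0.811 with a filter at 5 TPM, 0.823 with the GC correction and 0.710 to 0.829 without each library. The slope was 0.894 with array weights and 0.913 to 1.01 without each library. Genes higher in both genotypes numbered 1011, 1056 and 3186 with median-ratio scaling, quantile normalization and no mitochondrially encoded genes, and 1127 to 2345 without each library. Genes lower in both numbered 1095, 1088 and 1286 with median-ratio scaling, quantile normalization and the GC correction. The pseudogene split as a term, chosen after seeing the data, gave 688 and 340 in KO, 2105 higher in Ctrl, and 1 and 0 in the genotype test.

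With the replicate number as a block, the counts were 1990 and 807 in KO, 3352 and 1079 in Ctrl, and 0 and 0 in the genotype test (limma; 2238 genes at an unadjusted p under 0.05). Same-numbered libraries deviated together with r of 0.037, -0.149 and -0.037 in KO and 0.208, -0.129 and -0.001 in Ctrl. Libraries of unlike number gave values of similar size, such as -0.224 and 0.194 in Ctrl. This check therefore cannot decide whether the numbers pair the samples, which the labels do not state. The main fits took no pairing. Of 130 named genes called in KO, 101 were called under each of the alternatives listed with the processing other than the pseudogene split, 109 without each library in turn, and 92 with the pseudogene split as a term, where all 130 kept their direction. Since TPM keeps no depth, the precision of low values is unknown.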
